A study of Homo sapiens with 12 samples.

Results

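The 10 genes described here belong to the insulin-like growth factor (IGF) axis and were followed through 12 RNA-seq libraries of MDA231-LM2, a breast cancer line selected from MDA-MB-231 for its spread to lung. They were the 3 receptor genes IGF1R, INSR and IGF2R, the 2 substrate genes IRS1 and IRS2, and the 5 binding protein genes IGFBP1, IGFBP3, IGFBP4, IGFBP6 and IGFBP7. They were chosen by name, with earlier results of these data known. All 10 were found among the 21574 features of the deposited table and passed the filter on low values. The libraries formed 4 groups of 3. Ctrl and TMEM216 were cell populations of the MDA231-LM2 line without IGF1, and Ctrl+IGF1 and TMEM216+IGF1 were the same populations labelled as given IGF1. The labels do not say how the TMEM216 population was made, whether either population was a single clone, or the amount and length of IGF1 treatment. They also do not say whether replicates were separate cultures, so every p-value measures only how far these libraries differ among themselves, which could be technical variation. The question the design poses for these genes is how TMEM216 and added IGF1 change the transcripts that receive, relay and buffer the IGF signal.

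The target gene followed its labels, with TMEM216 transcript at 163 to 250 TPM in the 6 libraries labelled TMEM216 and 24.0 to 30.1 TPM in the 6 labelled Ctrl. TPM, a transcript's share of the library scaled to a fixed total, is length-corrected, so sequencing depth is unknown and levels of different genes can be compared. The line's expected markers were present (8 of 8, summing to 8459 to 10164 TPM per library), while of 5 genes expected to be low, ESR1, PGR and CDH1 averaged below 1 TPM but ERBB2 averaged 36.0 TPM and EPCAM 13.7 TPM. Summed markers of leukocytes, endothelium, fibroblasts, adipocytes and hepatocytes stayed within 4.24 TPM in each library for each list. One library stood apart. Ctrl+IGF1 replicate 3 had 16.9% of its TPM in ribosomal protein genes, against 12.4% to 14.5% in the others. TMEM216 replicate 1 was the next farthest along the first principal component, at -19.4 against -31.0 for Ctrl+IGF1 replicate 3. The part of either library's composition in the results was not tested.

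IGF1 and IGF2 are secreted ligands. They act mainly through IGF1R, a receptor tyrosine kinase closely related to the insulin receptor INSR, and the docking proteins IRS1 and IRS2 pass the signal from the activated receptor to PI3 kinase and AKT. IGF2R binds IGF2 without a kinase of its own and takes it to the lysosome for destruction. The IGF binding proteins hold the ligands outside the cell, and proteases such as pappalysin 1, which cuts IGFBP4, set them free. IGFBP7 binds IGF only weakly and is also known as a vascular and matrix protein.

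Of the 10 genes only IGFBP4 passed the test in any comparison. With IGF1 present it rose from 853 ± 23.3 to 1072 ± 10.6 TPM (SD, n = 3) between Ctrl and TMEM216 cells, a log2 change of 0.33. This call was lost with median-of-ratios scaling and in a fit of only the 6 libraries compared. Averaged over both IGF1 conditions IGFBP4 also rose. That average includes the comparison with IGF1, and without IGF1 the difference in IGFBP4 did not pass (log2 0.071). IGFBP3 had the smallest p of the 10 for IGF1 itself, at 60.5 ± 1.22 TPM in Ctrl and 48.0 ± 2.69 TPM in Ctrl+IGF1 (SD, n = 3), but did not pass the threshold. The receptors and substrates passed in no comparison. A count of 1 in 10 compares with 1.61% of all features called with IGF1 (0.918% higher) and 5.22% averaged (2.00% higher).

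The cells had transcripts of the receptors and substrates but almost none of the ligands. IGF1 ranged from 0 to 0.233 TPM and IGF2 from 0.0659 to 0.379 TPM over the 12 libraries, and INS, the insulin gene, was listed at 0 in each. The binding proteins were far more abundant than the receptors. IGFBP4 averaged 939 TPM over the 12 libraries, higher than 99.0% of the 13071 features tested. IGFBP7 followed at 286 TPM, IGFBP6 at 111 TPM, IGFBP3 at 57.2 TPM and IGFBP1 at 39.9 TPM. IGF2R and IRS1 came next at 29.6 and 29.5 TPM, then IGF1R at 9.62 TPM, IRS2 at 8.12 TPM and INSR at 3.41 TPM.

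The steps in this order were unequal. The ranges over libraries did not overlap between IGFBP4 and IGFBP7, IGFBP7 and IGFBP6, or IGFBP6 and IGFBP3. IGFBP3 and IGFBP1 overlapped in range, although IGFBP3 was the higher of the pair in 12 of 12 libraries, and IGFBP1 exceeded IGF2R in 11 of 12. IGF2R and IRS1 could not be ordered, with IGF2R higher in 5 of 12 libraries. IRS1 lay above IGF1R without overlap, by 3.11 ± 0.412 times (SD over 12 libraries), and IGF1R exceeded IRS2 in 10 of 12. INSR was lowest in every library, and IRS2 stood 2.40 ± 0.310 times above it (SD over 12 libraries).

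**Figure D1:**
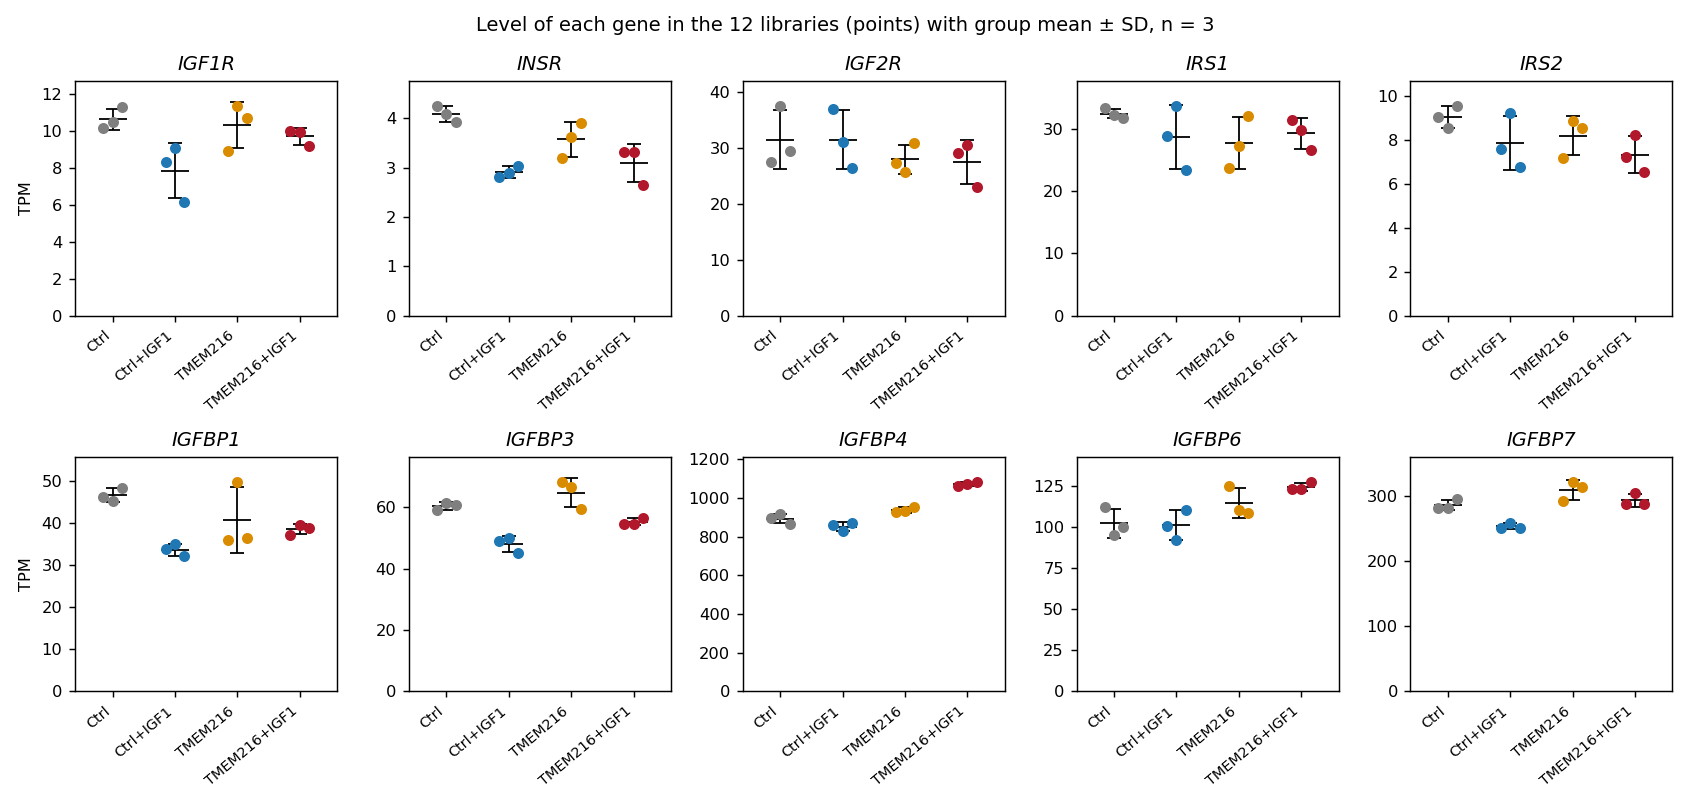
TPM of the 10 genes in the 12 libraries, 1 panel per gene with its own vertical axis from 0; points are libraries, coloured by group, and black marks are the group mean ± SD (n = 3). The 3 TMEM216+IGF1 libraries lie highest for IGFBP4, between 1062 and 1083 TPM, and the 3 Ctrl+IGF1 libraries lie lowest for IGFBP3, between 45.0 and 50.2 TPM.

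The receptors came first in the order of signalling. IGF1R, the main receptor for IGF1, was at 10.2, 10.5 and 11.3 TPM in Ctrl, 8.30, 9.06 and 6.16 TPM in Ctrl+IGF1, 8.91, 11.3 and 10.7 TPM in TMEM216 and 10.0, 9.92 and 9.18 TPM in TMEM216+IGF1. Every Ctrl+IGF1 library was below every Ctrl and every TMEM216+IGF1 library, while the groups without IGF1 overlapped. The log2 change with IGF1 in Ctrl cells was -0.41 (SE 0.13, adjusted p = 0.673), and -0.27 without Ctrl+IGF1 replicate 3. Between the populations with IGF1 it was 0.29 (SE 0.13, adjusted p = 0.310), and 0.15 without that library. Without IGF1 it was -0.046, and 0.046 without TMEM216 replicate 1, so no direction is given. As these are bulk cultures, less transcript per cell and fewer cells that carry it cannot be told apart.

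INSR, which binds insulin and, in part, IGF2, was at 4.24, 4.09 and 3.92 TPM in Ctrl and at 2.80, 2.89 and 3.03 TPM in Ctrl+IGF1. In TMEM216 cells it was at 3.20, 3.63 and 3.90 TPM without IGF1 and at 3.32, 3.31 and 2.65 TPM with it. The Ctrl pair of groups did not overlap and the TMEM216 pair did. The log2 changes with IGF1 were -0.38 (SE 0.12, adjusted p = 0.673) in Ctrl and -0.16 (SE 0.12, adjusted p = 1.000) in TMEM216 cells, so neither passed, and the latter was -0.083 without TMEM216+IGF1 replicate 3. IGF2R, the clearing receptor, ranged from 23.1 to 37.4 TPM, and its groups overlapped in each of the 4 comparisons. Its log2 change with IGF1 in Ctrl cells was -2.2e-04 with a 95% interval from -0.33 to 0.33.

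The substrates overlapped between groups in each of the 4 comparisons of pairs of groups. IRS1 stood at 32.4 ± 0.773 TPM in Ctrl, 28.6 ± 5.09 in Ctrl+IGF1, 27.7 ± 4.16 in TMEM216 and 29.3 ± 2.50 in TMEM216+IGF1 (SD, n = 3). The 3 Ctrl libraries were close together, and the spread was wider in each other group. IRS2 stood at 9.06 ± 0.499, 7.87 ± 1.25, 8.20 ± 0.889 and 7.35 ± 0.850 TPM in the same order (SD, n = 3). For IRS1 the log2 difference between the populations without IGF1 was -0.23 (95% interval -0.52 to 0.057, adjusted p = 0.511), and -0.13 without TMEM216 replicate 1. None of the 4 comparisons passed for either gene.

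The 250 bases before the start sites of 3 binding protein genes are printed here: IGFBP4 because it was called, IGFBP6 because it missed the threshold narrowly, and IGFBP3 because its libraries separated by IGF1. IGFBP7, which missed the threshold more narrowly than IGFBP6, and IGFBP1 had no window at hand and were not searched. The printed windows are RefSeq sequences on GRCh38.p14, 5′ to 3′ on the gene's strand, with matches to searched motifs in capitals. IGFBP4 lies at chr17:40443200-40443449 (plus strand), IGFBP6 at chr12:53097417-53097666 (plus strand) and IGFBP3 at chr7:45921273-45921522 (minus strand).
IGFBP4: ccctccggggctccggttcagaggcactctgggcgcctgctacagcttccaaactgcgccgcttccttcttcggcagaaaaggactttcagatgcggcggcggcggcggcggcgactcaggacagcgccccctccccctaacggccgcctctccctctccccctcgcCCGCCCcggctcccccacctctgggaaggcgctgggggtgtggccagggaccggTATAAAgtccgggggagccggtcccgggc
IGFBP6: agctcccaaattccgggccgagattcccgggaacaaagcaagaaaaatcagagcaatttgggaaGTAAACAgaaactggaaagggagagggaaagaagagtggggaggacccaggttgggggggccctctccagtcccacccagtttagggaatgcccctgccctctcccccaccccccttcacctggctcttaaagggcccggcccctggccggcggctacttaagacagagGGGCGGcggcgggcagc
IGFBP3: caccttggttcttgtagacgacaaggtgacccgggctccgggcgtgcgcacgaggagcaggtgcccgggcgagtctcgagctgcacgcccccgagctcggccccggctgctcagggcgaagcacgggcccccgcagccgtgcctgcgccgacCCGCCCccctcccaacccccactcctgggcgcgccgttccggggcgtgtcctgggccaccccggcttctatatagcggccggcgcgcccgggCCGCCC
Both strands of the 8 windows at hand were searched for 7 motifs. The TATA box was searched as TATAAA, which was in 10.7% of 35116 promoter windows of this length. IGFBP4 alone of the 8 members held it, with its first letter 29 bases before the start. Variants of these letters, such as the tatata in the printed IGFBP3 window, were not searched. The FOXO motif was searched as GTAAACA, which was in 2.98% of all windows. IGFBP6 alone held it, starting 186 bases before the start. The GC box was searched as GGGCGG, which was in 42.6% of all windows and in each of the 8, with 1 match in IGFBP4, 1 in IGFBP6 and 2 in IGFBP3. The 8 windows were 61.2% to 81.2% G or C, beside a median of 58.0% over all windows. The part of this richness in the matches was not tested. The E-box was searched as CACGTG, which was in 6.34% of all windows and, among the 8, in that of IGF2R, 3 times. The AP-1 motif, searched as TGANTCA and found in 6.57% of all windows, had no match in the 8. Neither had the CRE, searched as TGACGTCA and found in 1.65%, nor the ATF4 motif, searched as TGATGCAAT and found in 0.216%. No motif overlapped another in the windows printed. These matches describe letters in a window and are not evidence of binding.

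IGFBP4, a binding protein that holds IGF away from its receptor, was at 896, 915 and 868 TPM in Ctrl and at 858, 827 and 873 TPM in Ctrl+IGF1. It was at 928, 930.5 and 955 TPM in TMEM216 and at 1062, 1071 and 1083 TPM in TMEM216+IGF1. In the deposited TPM each TMEM216 library was above each Ctrl library whatever the IGF1 condition, as in 1.97% of features. The TMEM216+IGF1 libraries were above all others, which was not counted over all features. With IGF1 the difference between populations was log2 0.33 (SE 0.053, 95% interval 0.22 to 0.45, adjusted p = 0.00775 by limma), a 25.8% higher mean TPM. The call was lost with median-of-ratios scaling (log2 0.27, adjusted p = 0.0952) and in a fit of only the 6 libraries compared (log2 0.33, adjusted p = 0.0978). Without IGF1 the difference was log2 0.071 (SE 0.053, adjusted p = 0.643), and its sign turned with quantile normalization (log2 -0.013), so no direction is given there.

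The response of IGFBP4 to IGF1 was also compared between the populations. Its level in TMEM216+IGF1 exceeded that in TMEM216 without overlap, by log2 0.19 (SE 0.053, adjusted p = 0.705), while in Ctrl cells the log2 difference was -0.067 (SE 0.053, adjusted p = 0.696) with overlap, and 0.024 with median-of-ratios scaling. The interaction of the factors was log2 0.26 (SE 0.074, adjusted p = 0.754). Averaged over IGF1, IGFBP4 rose from 873 ± 30.6 TPM in the 6 Ctrl libraries to 1005 ± 74.4 TPM in the 6 TMEM216 libraries (SD, n = 6), a log2 change of 0.20 (SE 0.037, adjusted p = 0.00890). All 6 TMEM216 libraries, at 928 to 1083 TPM, were above all 6 Ctrl libraries, at 827 to 915 TPM, as in 1.97% of features. This averaged call held in 20 of 20 alternatives, between log2 0.17 and 0.21. It includes the larger difference with IGF1 and is not independent of that call.

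IGFBP6, which prefers IGF2 over IGF1, was at 112, 95.1 and 99.9 TPM in Ctrl, 101, 92.3 and 110.4 TPM in Ctrl+IGF1, 125, 110.5 and 108 TPM in TMEM216 and 123, 123 and 128 TPM in TMEM216+IGF1. Its TMEM216+IGF1 libraries were all above the Ctrl+IGF1 libraries. The log2 difference with IGF1 was 0.30 (SE 0.089, adjusted p = 0.128) and averaged over IGF1 it was 0.23 (SE 0.063, adjusted p = 0.0546), just short of the threshold. The averaged value passed in 3 of 20 alternatives and otherwise had an adjusted p of up to 0.140 by limma. These included the fit without Ctrl replicate 1 (log2 0.27, adjusted p = 0.0499). Another left out Ctrl+IGF1 replicate 3 (log2 0.26, adjusted p = 0.0255), and the last dropped TMEM216 replicate 1 as well.

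IGFBP7 was at 282, 282 and 296 TPM in Ctrl, 251, 259 and 251 TPM in Ctrl+IGF1, 293, 322 and 313 TPM in TMEM216 and 287, 305 and 288 TPM in TMEM216+IGF1. In the deposited TPM the Ctrl+IGF1 libraries were the lowest 3 of the 12, which was not counted over all features. They were below every Ctrl library, as in 11.8% of features, but not with median-of-ratios scaling. Between populations the log2 difference was 0.21 (SE 0.060, adjusted p = 0.122) with IGF1 and 0.16 (SE 0.042, adjusted p = 0.0516) averaged over IGF1. The averaged value passed in 5 of 20 alternatives and otherwise had an adjusted p of up to 0.133 by limma. It passed without Ctrl+IGF1 replicate 2 or without TMEM216 replicate 1 (log2 0.17 and 0.18, adjusted p = 0.0442 and 0.0277). It also passed with quantile normalization (log2 0.14, adjusted p = 0.0439) or no filter (adjusted p = 0.0313). Leaving out TMEM216 replicate 1 along with Ctrl+IGF1 replicate 3 gave a call too (log2 0.18, adjusted p = 0.0184). IGFBP7 overlaps POLR2B on the opposite strand in GENCODE v29, and since the sources used here do not say whether reads kept their strand, its values are uncertain to that extent. No other of the 10 genes overlapped a tested gene.

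IGFBP3, the main carrier of IGF in blood and also a growth inhibitor in its own right, was at 59.2, 61.5 and 60.9 TPM in Ctrl and at 49.0, 50.2 and 45.0 TPM in Ctrl+IGF1. In TMEM216 it was at 68.3, 66.6 and 59.4 TPM and in TMEM216+IGF1 at 54.6, 54.7 and 56.7 TPM. All 6 libraries with IGF1, at 45.0 to 56.7 TPM, were below all 6 without it, at 59.2 to 68.3 TPM, a separation in this direction that 0.168% of features showed. The log2 change averaged over populations was -0.27 (SE 0.052, 95% interval -0.39 to -0.16), and it did not pass after adjustment over all features (adjusted p = 0.136). It was -0.33 (SE 0.074, adjusted p = 0.506) in Ctrl and -0.22 (SE 0.074, adjusted p = 0.864) in TMEM216 cells.

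IGFBP1, which insulin and AKT signalling are known to repress in liver, was at 46.3, 45.2 and 48.4 TPM in Ctrl and at 33.7, 35.0 and 32.1 TPM in Ctrl+IGF1. The TMEM216 libraries were at 36.0, 49.8 and 36.5 TPM and the TMEM216+IGF1 libraries at 37.2, 39.6 and 38.8 TPM. The Ctrl pair did not overlap, and TMEM216 replicate 2 stood well above the other 2 of its group. The log2 change with IGF1 was -0.46 (SE 0.11, adjusted p = 0.564) in Ctrl and -0.063 (SE 0.11, adjusted p = 1.000) in TMEM216 cells. Without TMEM216 replicate 2 the latter was 0.087, so its direction rests on that library. The interaction, log2 0.40 (SE 0.16, adjusted p = 0.754), did not pass. IGFBP1 and IGFBP3 are neighbouring genes on chromosome 7, with no other protein-coding gene between them in GENCODE v29.

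The 5 binding proteins together made 1389 ± 14.4 TPM in Ctrl, 1289 ± 24.4 in Ctrl+IGF1, 1467 ± 15.1 in TMEM216 and 1584 ± 16.9 in TMEM216+IGF1 (SD, n = 3). In the deposited TPM no library of one group fell within another group's range. The sum was not computed under other scalings, and with quantile normalization no member separated the populations without IGF1. IGFBP4 took most of this sum, at 64.3 ± 1.11%, 66.1 ± 0.579%, 63.9 ± 0.979% and 67.7 ± 0.401% in the same order (SD, n = 3). The sum is a description of genes chosen with earlier results known and carries no test.

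**Figure D2:**
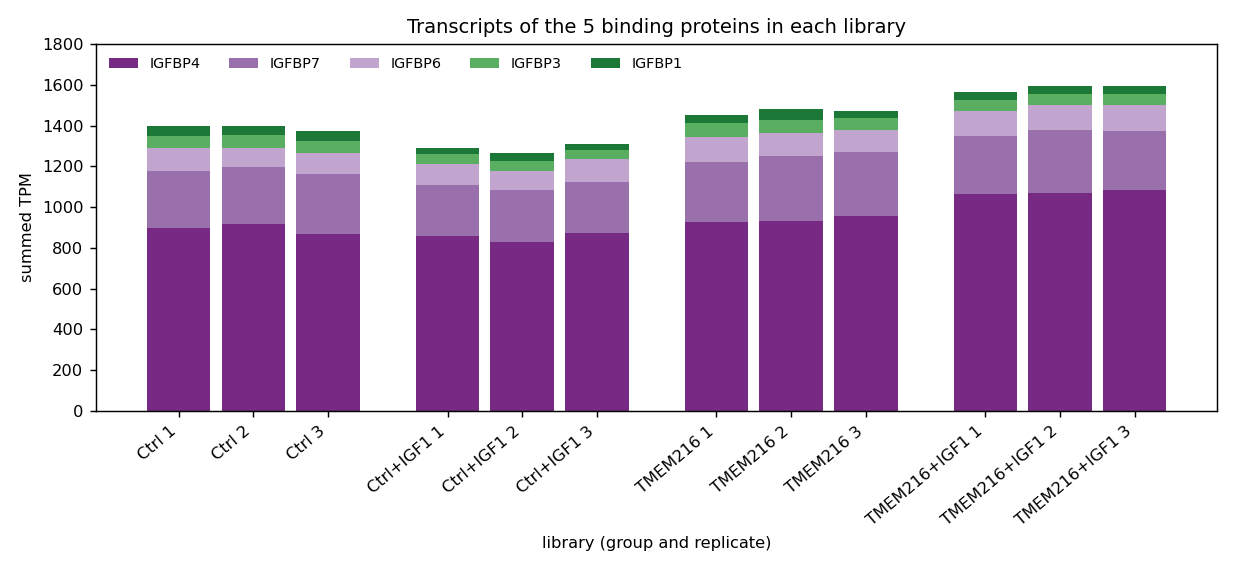
Stacked bars of TPM for the 5 binding protein genes in each library, by group and replicate, with the vertical axis from 0. The 3 Ctrl+IGF1 bars are the shortest, at 1263 to 1312 TPM, the 3 TMEM216+IGF1 bars the tallest, at 1564 to 1594 TPM, and IGFBP4 is the largest segment of each bar.

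Read across the comparisons, calls were few. The 10 genes were chosen with earlier results known, so the values of all features set beside theirs are a description, not a test. With IGF1 present, 1 of the 10 genes passed between TMEM216 and Ctrl cells, IGFBP4, against 1.61% of all features, and 8 of 10 had fitted values above 0 (7 of 10 with either other scaling). Their median log2 difference was 0.20, beside 0.048 over all features. Without Ctrl+IGF1 replicate 3, 7 of 10 were above 0 and these medians were 0.15 and -0.0056. In this comparison 6 of 10 genes, IGF1R, IGFBP1, IGFBP3, IGFBP4, IGFBP6 and IGFBP7, had all TMEM216+IGF1 libraries above all Ctrl+IGF1 libraries, against 12.0% of features. With median-of-ratios scaling there were 5, without IGFBP6, against 11.7% of features. Without Ctrl+IGF1 replicate 3 the same 6 were higher (14.0% of features), and IGF2R was lower without overlap (16.8%). Without IGF1, none of the 10 genes passed by limma, against 1.09% of all features. In the deposited TPM the groups did not overlap for IGFBP4, with TMEM216 above (6.30% of features), and INSR, with TMEM216 below (15.5%). With quantile normalization, where the fitted sign of IGFBP4 turned, no member was without overlap, and with median-of-ratios scaling IGFBP4 and IGFBP7 were, both higher (10.8%). The median was -0.089 beside -0.048 over all features. It was -0.0021 beside -0.025 without TMEM216 replicate 1, with 5 of 10 above 0. With quantile normalization it was -0.026 beside 0.0039, and with median-of-ratios scaling -0.040 beside 0.0023.

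For IGF1 in Ctrl cells none of the 10 passed by limma, against 0.0306% of all features. All 10 fitted values were below 0, with a median of -0.19 beside -0.088 over all features. Without Ctrl+IGF1 replicate 3, 9 of 10 were below 0, with medians of -0.13 and -0.024. Without Ctrl+IGF1 replicate 2, 8 of 10 were below 0, with medians of -0.30 and -0.14. After scaling that brings the median of all features near 0, 7 (median-of-ratios) or 8 (quantile) of 10 were below 0. IGF1R, INSR, IGFBP1, IGFBP3 and IGFBP7 had every Ctrl+IGF1 library below every Ctrl library, against 11.8% of features. With median-of-ratios scaling there were 4, without IGFBP7, against 7.14% of features, and without Ctrl+IGF1 replicate 3 there were 6, with IGFBP4 added, against 14.3%. This comparison and that of the populations with IGF1 share the 3 Ctrl+IGF1 libraries. Their values are therefore not independent of each other.

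In TMEM216 cells IGF1 gave no call among the 10 by limma, against 0.0153% of all features. The groups did not overlap for IGFBP3, lower with IGF1 (3.69% of features), and IGFBP4, higher with IGF1 (6.56%). With median-of-ratios scaling INSR and IGFBP7 were also lower without overlap (4.68%). The interaction gave none by limma, against 0.0153% of all features. The median interaction was 0.18 beside 0.11 over all features. With quantile normalization these medians were 0.098 and 0.011, and with median-of-ratios scaling 0.080 and 0.0040. Of the 10 values 9 were above 0, and 8 and 6 with those scalings. Without Ctrl+IGF1 replicate 3, 8 were above 0, and the medians were 0.17 for the members and 0.047 over all features. Averaged over IGF1, the TMEM216 effect gave 1 call of 10, IGFBP4, against 5.22% of all features. A share of 1 in 10 is near that background. Averaged over populations, IGF1 gave none by limma, against 0.0536% of all features.

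**Figure D3:**
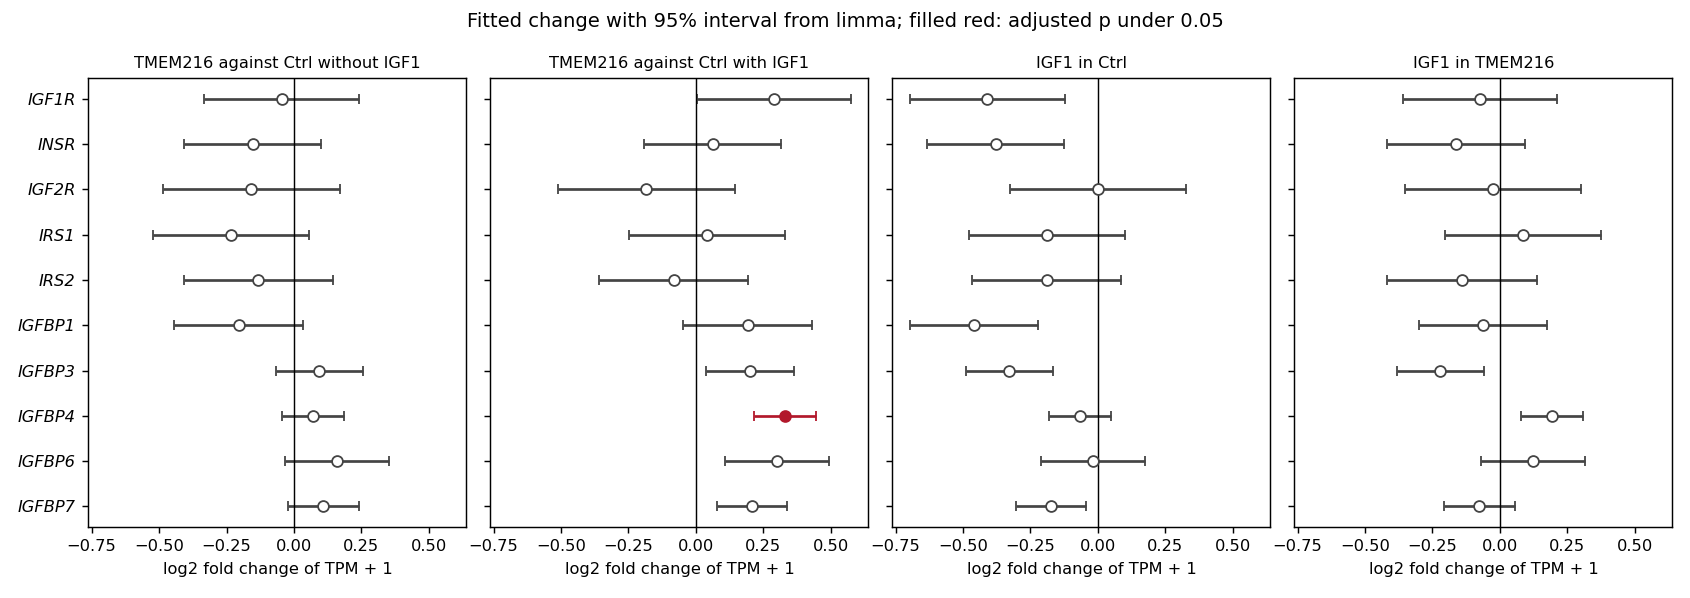
Fitted log2 fold changes of TPM + 1 for the 10 genes in the 4 comparisons of pairs of groups; points are limma estimates and bars their 95% intervals, not adjusted for the number of genes. Only IGFBP4 with IGF1 present, at 0.33, is drawn as past the threshold, while with IGF1 in Ctrl cells all points lie at or left of 0.

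The rest of the pathway was taken from 7 lists of 90 genes, of which 77 were tested. Of these, 3 passed between the populations without IGF1 (1.09% of all features did), all lower in TMEM216 cells. With IGF1 4 passed (1.61% of all features), 2 higher and 2 lower. Averaged over IGF1, 3 rose and 3 fell, a count near the 5.22% of all features. None passed by limma for IGF1 in either population. The lists' medians are beside those of all features: for the 77 genes -0.077 beside -0.048 without IGF1, and 0.12 beside 0.048 with it.

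Among proteases acting on the binding proteins, PAPPA, the pappalysin that cuts IGFBP4, passed as higher in TMEM216 cells averaged over IGF1. It also passed with IGF1, but did not pass without IGF1. It was at 5.90, 6.08 and 5.97 TPM in Ctrl, 4.84, 5.74 and 3.44 TPM in Ctrl+IGF1, 6.82, 7.53 and 9.97 TPM in TMEM216 and 8.79, 9.32 and 8.08 TPM in TMEM216+IGF1. All TMEM216 libraries were above all Ctrl libraries, as in 1.97% of features. PAPPA rose by log2 0.58 (SE 0.11, adjusted p = 0.0116) averaged over IGF1 and by 0.80 (SE 0.16, adjusted p = 0.0285) with IGF1. The call with IGF1 was lost with the replicate block, with no filter, with only the 6 libraries compared and without any 1 of 9 libraries, with log2 0.63 where nearest 0 and exceptions only for Ctrl+IGF1 replicate 2 and TMEM216 replicates 1 and 3, whereas the averaged call held in 20 of 20 alternatives. Its inhibitors STC1 and STC2, the stanniocalcins, stood at 83.5 and 1.03 TPM over the 12 libraries and passed in no comparison. MMP3, a matrix metalloprotease, fell by log2 1.07 averaged over IGF1 (SE 0.084, adjusted p = 1.92e-05). Of the 11 tested genes of this list the other 9 did not pass in any comparison. Averaged over IGF1, 1 of the 11 rose and 1 fell, where 5.22% of all features passed (2.00% higher).

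Of the other binding proteins, IGFBP2 was at 4.70 TPM and IGFBPL1 at 9.67 TPM over the 12 libraries, and neither passed. IGFBP5 and IGFALS, the acid-labile subunit of the circulating IGF complex, did not exceed 0.0221 and 0.165 TPM in any library. Of 24 tested adaptors and receptor regulators 1 passed averaged over IGF1, a count near the 5.22% of all features. This was SOCS3, a feedback inhibitor of cytokine and insulin receptor signalling. SOCS3 rose by log2 0.33 (SE 0.057, adjusted p = 0.00645 by limma), from 38.5 to 48.6 TPM. With IGF1 its call (log2 0.36, adjusted p = 0.0469) was lost with either other scaling, with the replicate block, with no mean-variance trend, with only the 6 libraries compared and without any 1 of 8 libraries, the exceptions being Ctrl+IGF1 replicate 2, TMEM216 replicates 1 and 3 and TMEM216+IGF1 replicate 2. None of the 22 tested genes of the PI3K and AKT arm passed in any comparison.

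In the mTORC1 arm, 2 of 16 tested genes fell averaged over IGF1, where 5.22% of all features passed. Both are known as inhibitors of mTORC1, and 4 other tested inhibitors in the list, TSC1, TSC2, SESN1 and AKT1S1, did not pass. SESN2 fell by log2 1.00 (SE 0.079, adjusted p = 2.03e-05), from 16.3 to 7.67 TPM, and DDIT4 by log2 0.36 (SE 0.054, adjusted p = 0.00297), from 194 to 152 TPM. DDIT4 without IGF1 passed (log2 -0.38, adjusted p = 0.0403) but lost its call with median-of-ratios scaling, with the replicate block, with no mean-variance trend, with only the 6 libraries compared and without any 1 of 10 libraries, the exceptions being Ctrl+IGF1 replicates 2 and 3. Of 2 tested IGF2 mRNA-binding proteins, IGF2BP3, which binds IGF2 mRNA, rose by log2 0.49 averaged over IGF1 (SE 0.11, adjusted p = 0.0233), and the call was lost without any 1 of 5 libraries (TMEM216+IGF1 replicates 1 and 2, Ctrl replicates 1 and 3, and TMEM216 replicate 2), with log2 0.42 the value nearest 0. A list of 2 tested genes is too short to set 1 call beside the 5.22% of all features. IGF2BP3 overlaps MALSU1 on the opposite strand.

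**Figure D4:**
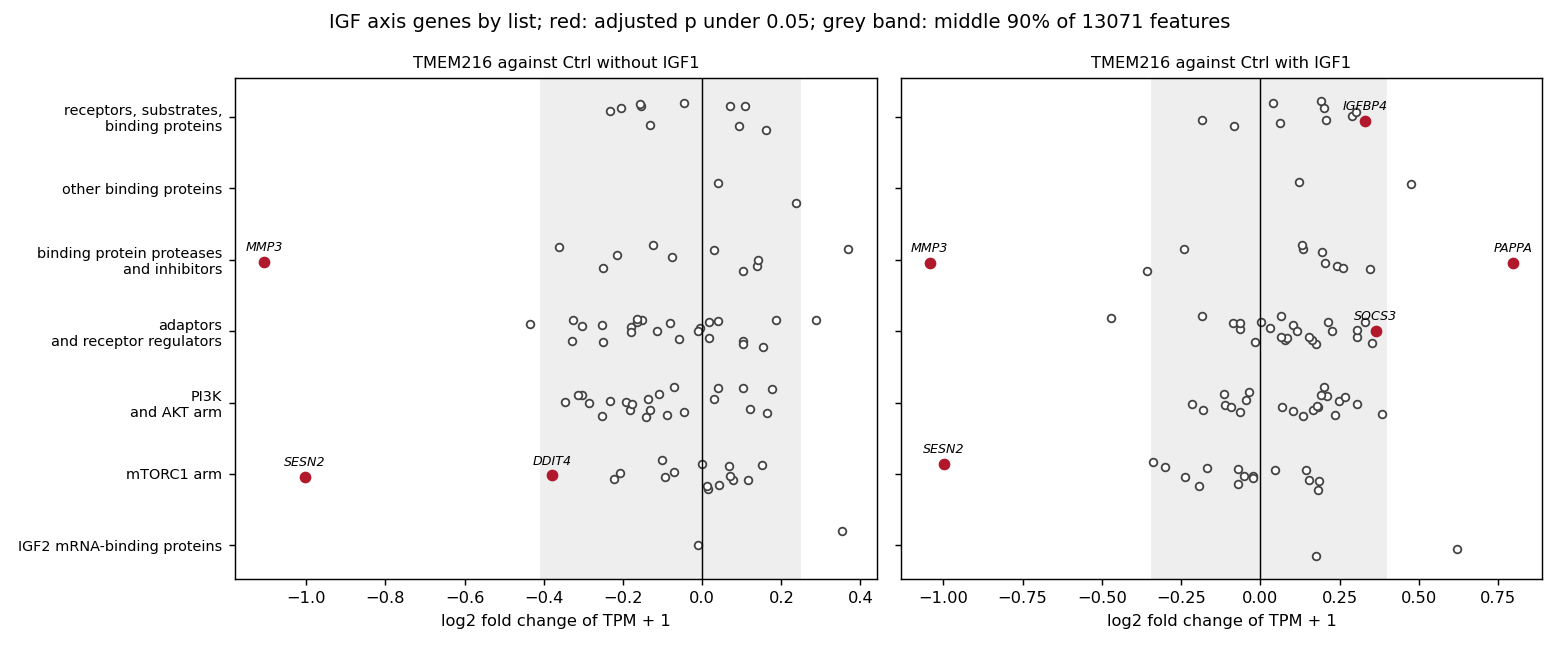
Fitted log2 fold changes of TPM + 1 between the populations, without IGF1 (left) and with IGF1 (right), for the 10 genes (top row) and the other tested pathway genes by list; red points passed an adjusted p of 0.05 and the grey band spans the middle 90% of 13071 features. MMP3 and SESN2 lie near -1 in both panels, and IGFBP4, PAPPA and SOCS3 are marked to the right of 0 in the right panel.

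IGFBP4 was the one member with a call, and its pattern over the 12 libraries was most like that of TINAGL1, a matrix glycoprotein, with a Pearson correlation of 0.96 on the log2 scale. SEMA6B, a semaphorin, and CLU, the chaperone clusterin, followed at 0.93 each. They were the top 3 of 10305 genes with a mean of at least 5 TPM, of which 7 exceeded 0.9. The 12 points share groups and library composition, so these values describe likeness only.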

How the data were processed

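Total RNA of 12 samples of MDA231-LM2 cells was extracted with TRIzol, treated with DNase I and made into libraries with an Illumina TruSeq kit, per the labels' protocols. HISAT2, StringTie and RSEM are named in the submitters' processing notes. The sources used here give no genome build, annotation, version or strand setting. The authors deposited TPM values per gene for all libraries in 1 table, so read depth is unknown and no count test was made. Features that reached a TPM of 1 in at least 3 libraries (13071 of 21574) were kept, transformed to log2(TPM + 1) and fitted over all 4 groups with limma 3.58.1 in R 4.3.3 with a mean-variance trend. A fold change on this scale understates the change of low genes. Tests were two-sided, and p-values were adjusted by Benjamini-Hochberg over all features, with a threshold of 0.05. The fit was tested on simulated data. Alternatives changed the pseudocount, filter, scaling, variance model, replicate block and libraries. The counts of groups without overlap under other scalings and without Ctrl+IGF1 replicate 3 were added after seeing the data. All 10 members are named. Other pathway genes are named where called, up to 5 per list, with ligands, other binding proteins and the stanniocalcins by level, the last chosen after their values were seen. The members and lists were chosen with earlier results of these data known. Promoter windows come from RefSeq (GRCh38.p14), matched by symbol for 8 of the 10 members, and gene overlaps from GENCODE v29, matched by Ensembl gene identifier. Like genes were ranked by Pearson correlation over 12 libraries.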

Additional observations from a re-analysis of the deposited data

How the results depend on the processing

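The 1 call between populations with IGF1 became 0 with median-of-ratios scaling and 0 with only the 6 libraries compared, and 2 (IGFBP6 added) with both Ctrl+IGF1 replicate 3 and TMEM216 replicate 1 left out. The share of all features called, 1.61% in the main fit, was 2.1%, 0.375% and 1.82% in these fits. The 1 averaged TMEM216 call became 2 with no filter, 2 with quantile normalization and 3 with those 2 libraries left out, and ranged from 1 to 2 when 1 library was left out. It was 2 without Ctrl replicate 1, Ctrl+IGF1 replicate 2 or 3, or TMEM216 replicate 1. Calls moved over the whole table as well. The averaged share of all features, 5.22% in the main fit, was 3.9% with no filter and 7.34% with quantile normalization. With both Ctrl+IGF1 replicate 3 and TMEM216 replicate 1 left out it was 8.12%. For the 4 single libraries named it was 3.2%, 6.93%, 6.27% and 5.94% in that order. The cause was not tested. IGFBP4 with IGF1 passed in 19 of 21 alternatives (log2 0.27 to 0.36, adjusted p from 0.00473 to 0.0978 by limma). The other 5 comparisons gave 0 calls among the members in each alternative run. Of 68 gene and comparison pairs without a call, 17 changed sign in some alternative, and neither called pair did. Libraries of the same replicate number were little alike once group means were removed. Of 18 same-numbered pairs 4 correlated over 0.1 (range -0.286 to 0.165), with a median of 0.016 beside 0.0039 for other pairs. Of 12 libraries 4 correlated best with their own number. With 3 libraries a group, these values cannot settle whether a number marks a shared culture or day. With the replicate block the member counts stayed at 1 and 1, and IGFBP4 had an adjusted p of 0.0308 with IGF1 and 0.0282 averaged. Depth is unknown, so the precision of the low genes, such as INSR, cannot be stated beyond the spread of 3 libraries.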

Other observations

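The balance within the receptor and substrate pairs was also measured. IGF1R exceeded INSR by 2.61 ± 0.244 times in Ctrl, 2.71 ± 0.594 in Ctrl+IGF1, 2.88 ± 0.212 in TMEM216 and 3.16 ± 0.262 in TMEM216+IGF1 (SD, n = 3). IRS1 exceeded IRS2 by 3.59 ± 0.231, 3.63 ± 0.174, 3.37 ± 0.342 and 4.00 ± 0.365 times in the same order (SD, n = 3). IGFBP3 stood at 0.0678 ± 0.00214, 0.0564 ± 0.00456, 0.0691 ± 0.00611 and 0.0516 ± 0.000641 of the level of IGFBP4 (SD, n = 3). These ratios of TPM were not tested.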
